A study of Mus musculus with 11 samples.

Results

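Anergic CD4 T cells were compared with naive CD4 T cells by ATAC-seq, which cuts open DNA with a transposase so that the reads mark accessible chromatin. The comparison takes the 3 libraries labelled anergic and the 2 labelled naive, 5 of the 11 libraries of the series, over all peaks of the table. All cells came from the mixed spleen and lymph node of untreated wildtype C57BL/6 mice with a polyclonal T cell repertoire and a Foxp3-GFP reporter, and were sorted without culture. The anergic gate was CD44 high, FOXP3 negative, CD73 high, FR4 high and NRP1 positive, and the naive gate was CD44 low. Effector cells (Teff; CD44 high, FOXP3 negative, CD73 low and FR4 low) and regulatory T cells (Treg; FOXP3 and CD25 positive), with 3 libraries each, are given beside them at single peaks. Anergy was therefore defined by surface phenotype in unmanipulated animals, and the sources used here give no functional test of these libraries. The labels do not say whether replicates are separate animals, so the p-values measure the spread between these libraries, which may be technical.

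T cell anergy is a state in which a cell that has met its antigen without adequate costimulation persists but no longer proliferates or makes IL-2 when restimulated. CD73, encoded by Nt5e, makes adenosine outside the cell, FR4, encoded by Izumo1r, is a folate receptor family protein, and NRP1, neuropilin-1, is a semaphorin and VEGF co-receptor. NFAT that enters the nucleus without its partner AP-1 is a textbook feature of the anergic state, whereas AP-1 proteins such as JUN, FOS and BATF pair with NFAT or with interferon regulatory factors (IRF) after full activation. Naive T cells depend on quiescence and stemness factors such as TCF7, LEF1, SATB1, BACH2, FOXP1 and KLF2.

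Sequences from 8 peaks are printed as instances of the motifs whose shares differed between peaks that rose and peaks that fell. Each is the 200 bases around the middle of the peak on the plus strand of the RefSeq GRCm38.p6 genome, which is the mm10 build of the table, with the motif in capitals. The peaks were chosen after their values were seen, among those named in the results. The first 4 peaks rose in anergic cells and hold a BATF-IRF composite, which is the AP-1 word TGANTCA followed after 4 bases by GAAA, or GAAA directly before the AP-1 word. They lie 17.8 kb downstream of the start of Cd70 at chr17:57131878-57132077, 88.2 kb downstream of the start of Nfkbiz at chr16:55733828-55734027, in an intron of Tox at chr4:6930752-6930951 and 21.9 kb downstream of the start of Gpr15 at chr16:58696893-58697092.
Cd70: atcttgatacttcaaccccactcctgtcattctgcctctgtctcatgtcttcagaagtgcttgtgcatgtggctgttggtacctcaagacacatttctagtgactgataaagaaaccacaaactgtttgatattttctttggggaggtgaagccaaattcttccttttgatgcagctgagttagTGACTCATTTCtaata
Nfkbiz: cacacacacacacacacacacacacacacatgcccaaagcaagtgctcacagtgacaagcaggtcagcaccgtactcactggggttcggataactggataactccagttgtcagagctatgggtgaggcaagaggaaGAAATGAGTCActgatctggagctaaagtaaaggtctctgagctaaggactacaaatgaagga
Tox: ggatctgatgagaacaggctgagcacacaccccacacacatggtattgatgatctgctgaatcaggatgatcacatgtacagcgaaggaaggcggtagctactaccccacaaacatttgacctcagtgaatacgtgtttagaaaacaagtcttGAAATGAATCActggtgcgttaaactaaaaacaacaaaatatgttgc
Gpr15: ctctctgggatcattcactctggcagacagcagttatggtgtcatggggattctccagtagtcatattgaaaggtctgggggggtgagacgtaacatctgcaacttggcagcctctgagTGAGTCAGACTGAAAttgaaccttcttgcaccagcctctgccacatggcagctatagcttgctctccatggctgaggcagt

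The next 2 also rose and hold the NFAT word TGGAAAN, here as TGGAAAT and, on the minus strand, as CTTTCCA read on the plus strand. The Ikzf2 peak, intergenic and 216 kb downstream of the start, is at chr1:69469367-69469566, and the Ctla4 peak, 6.33 kb upstream of the start, is at chr1:60902593-60902792.
Ikzf2: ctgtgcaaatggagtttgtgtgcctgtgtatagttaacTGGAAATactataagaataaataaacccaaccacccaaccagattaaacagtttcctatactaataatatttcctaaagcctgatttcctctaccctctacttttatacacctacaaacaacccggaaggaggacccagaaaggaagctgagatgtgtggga
Ctla4: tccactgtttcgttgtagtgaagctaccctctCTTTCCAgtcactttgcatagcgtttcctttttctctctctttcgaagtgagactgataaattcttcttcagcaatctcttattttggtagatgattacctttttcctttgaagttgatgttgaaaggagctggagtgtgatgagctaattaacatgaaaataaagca

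The last pair fell in anergic cells. The Il4ra peak, 10.2 kb upstream of the start at chr7:125541967-125542166, holds the ETS word AGGAAGT, and the peak in an intron of Cep164, at chr9:45807872-45808071, holds the RUNX word TGTGGTT on the minus strand.
Il4ra: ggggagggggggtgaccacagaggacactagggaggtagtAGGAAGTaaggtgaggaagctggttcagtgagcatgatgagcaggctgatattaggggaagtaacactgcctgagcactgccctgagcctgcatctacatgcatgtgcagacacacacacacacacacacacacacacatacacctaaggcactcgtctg
Cep164: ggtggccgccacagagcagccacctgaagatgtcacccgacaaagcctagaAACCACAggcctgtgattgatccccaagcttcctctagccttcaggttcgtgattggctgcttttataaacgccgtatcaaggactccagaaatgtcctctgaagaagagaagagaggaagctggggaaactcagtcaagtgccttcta

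Depth differed between the libraries. Reads in peaks, recovered from the deposited signal, numbered 45.7 M and 48.1 M for naive cells, against 21.5 M, 68.8 M and 55.0 M for anergic cells, within 14.7 to 68.8 M over all 11. The deposited signal is the number of reads in a peak times 1 factor per library, and its median over peaks was 208 to 225 in every library. It is comparable between libraries at 1 peak, and not between peaks of different width. Peaks at the lowest recorded value, read as 1 read, numbered 293 and 368 in the naive libraries and 17 to 31 in each of the other 9. The first principal component held 58.5% of the variance and placed the naive libraries at -198 and -193, the anergic at 113 to 123, the Teff at -17 to 3 and the Treg at 17 to 28.

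Accessibility differed at a large share of peaks, in both directions. Of 38493 tested peaks, 19420 (50.5%) passed an adjusted p of 0.05 in limma, of which 9742 (25.3%) were higher and 9678 (25.1%) were lower in anergic cells, and 12267 changed by at least 2-fold. The log2 fold change (anergic minus naive, on log2 of signal plus 1) had a median of -0.04 over all tested peaks. The rises were larger than the falls, with a median size of 1.63 (interquartile range 0.91 to 3.26) against 1.10 (0.69 to 1.72). Rises of at least 8-fold numbered 2729 and falls of that size 394, and beyond 32-fold there were 801 rises and 3 falls. The peak set was a consensus over all 11 libraries, of which 2 were naive. It may hold fewer sites open only in naive cells, and the part of this in the sizes was not tested. Many rises began near closed chromatin, since 3694 of the 9742 had less than 1 RPM (reads per M reads in peaks) in naive cells, while 1176 of the 9678 falls ended below that level in anergic cells. Naive and anergic libraries did not overlap at 99.1% of the rises and 98.9% of the falls, beside 66.7% of all tested peaks. Both naive libraries were at or below the floor of 3 reads at 229 peaks, and 223 of these rose. For such peaks the fold is given against 3 reads per library and is a lower bound.

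Change was concentrated away from transcription start sites. Distal peaks, more than 1000 bases from any RefSeq start, passed in 59.7% of 25738 cases (30.4% higher, 29.3% lower), and promoter peaks in 31.8% of 12688 (15.1% higher, 16.8% lower). A change of at least 2-fold was called at 42.6% of distal and 10.2% of promoter peaks. The share called grew with distance, from 51.5% at 1 to 5 kb to 56.7% at 5 to 20 kb, 63.9% at 20 to 50 kb, 68.3% at 50 to 100 kb and 72.8% beyond 100 kb. Promoter peaks held more signal (median 1227 in naive cells) than distal peaks (144) and were wider (median 846 against 291 bases), and the part of signal and width in these shares was not tested. Distal rises had a median log2 fold change of 1.91 and went from a median signal of 47.3 to one of 219.9, and distal falls had a median of -1.27 and went from 256 to 97.0. Promoters with fewer than 8 CpG in the middle 200 bases were called in 43.7% of cases, and those with 8 or more in 28.7%.

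**Figure D1:**
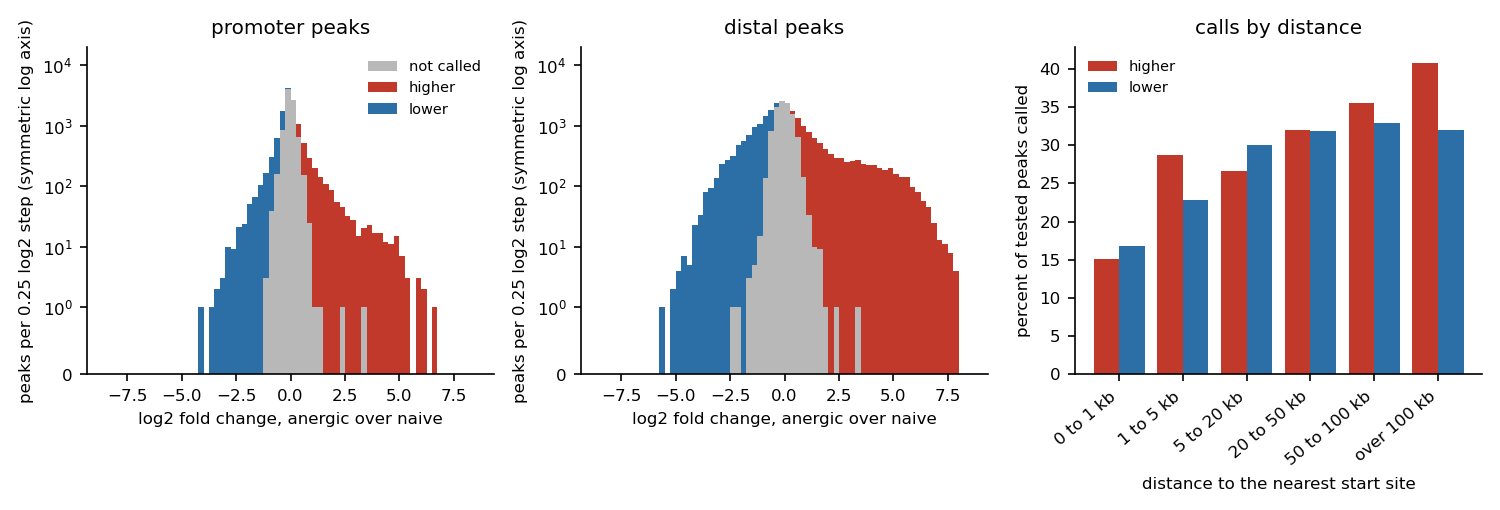
Number of peaks in each 0.25 step of log2 fold change, anergic minus naive, for promoter and for distal peaks (symmetric-log count axis; colours mark higher, lower and not called), and percent of peaks called higher or lower by distance to the nearest start site. Rises reach further from 0 than falls, and the share called climbs from 31.8% at promoters to 72.8% beyond 100 kb.

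AP-1, NFAT, NF-kB and octamer words were more frequent in peaks that rose. Motifs were searched on both strands in the middle 200 bases of the 25738 distal peaks, and a match describes letters, not binding. The AP-1 word TGANTCA was present in 22.8% of higher, 5.70% of lower and 7.75% of uncalled distal peaks, and in 11.7% of all. The BATF-IRF composite, every instance of which also contains the AP-1 word, was in 1.71% of higher and 0.119% of lower peaks, beside 0.633% of all. The NFAT word TGGAAAN was in 27.0% of higher, 11.9% of lower and 17.7% of all distal peaks. The NF-kB word GGANTTTCC was in 3.05%, 0.676% and 1.56%, and the octamer ATTTGCAT, bound by POU factors, in 2.66%, 0.490% and 1.29%. Read the other way, 59.1% of the 3016 distal peaks with an AP-1 word rose and 14.3% fell, with a median log2 fold change of 1.09. Of the 163 with the composite, 82.2% rose and 5.52% fell, with a median of 2.86. For the NFAT word the shares were 46.3% and 19.7%.

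Peaks that fell held ETS words more often. AGGAAGT was in 20.7% of lower, 11.8% of higher and 14.8% of all distal peaks, and of the 3802 peaks that hold it 24.2% rose and 41.0% fell. The RUNX word TGTGGTT was in 14.4% of lower, 11.5% of higher and 9.35% of uncalled peaks, so both called classes held it more often than the uncalled. The TCF/LEF word CTTTGAT showed the same order, with 6.20%, 5.01% and 3.50%. The core AGGNGGC of the CTCF motif was in 27.5% of uncalled, 19.7% of lower and 14.1% of higher peaks. The E-box CAGGTG, bound by E proteins and ZEB proteins, was in 14.6% of higher, 19.8% of lower and 19.1% of uncalled peaks. Base composition also differed, with a median GC content of 48.0% in higher, 50.5% in lower and 51.0% in uncalled distal peaks, and its part in these shares was not tested.

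The motif shares followed the size of the change. AP-1 words went from 4.91% of distal peaks with a log2 fold change of -3 or less to 31.9% of those at 3 or more, NFAT words from 8.01% to 36.2% and NF-kB words from 0.258% to 3.98%. The composite went from 0 of 387 peaks, which allows a share of up to 0.775%, to 3.06%. ETS words were most frequent at moderate falls, at 23.0% between -2 and -1, and were in 8.28% of peaks at 3 or more. The CTCF core was most frequent near no change, at 27.7% between -1 and 0.

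**Figure D2:**
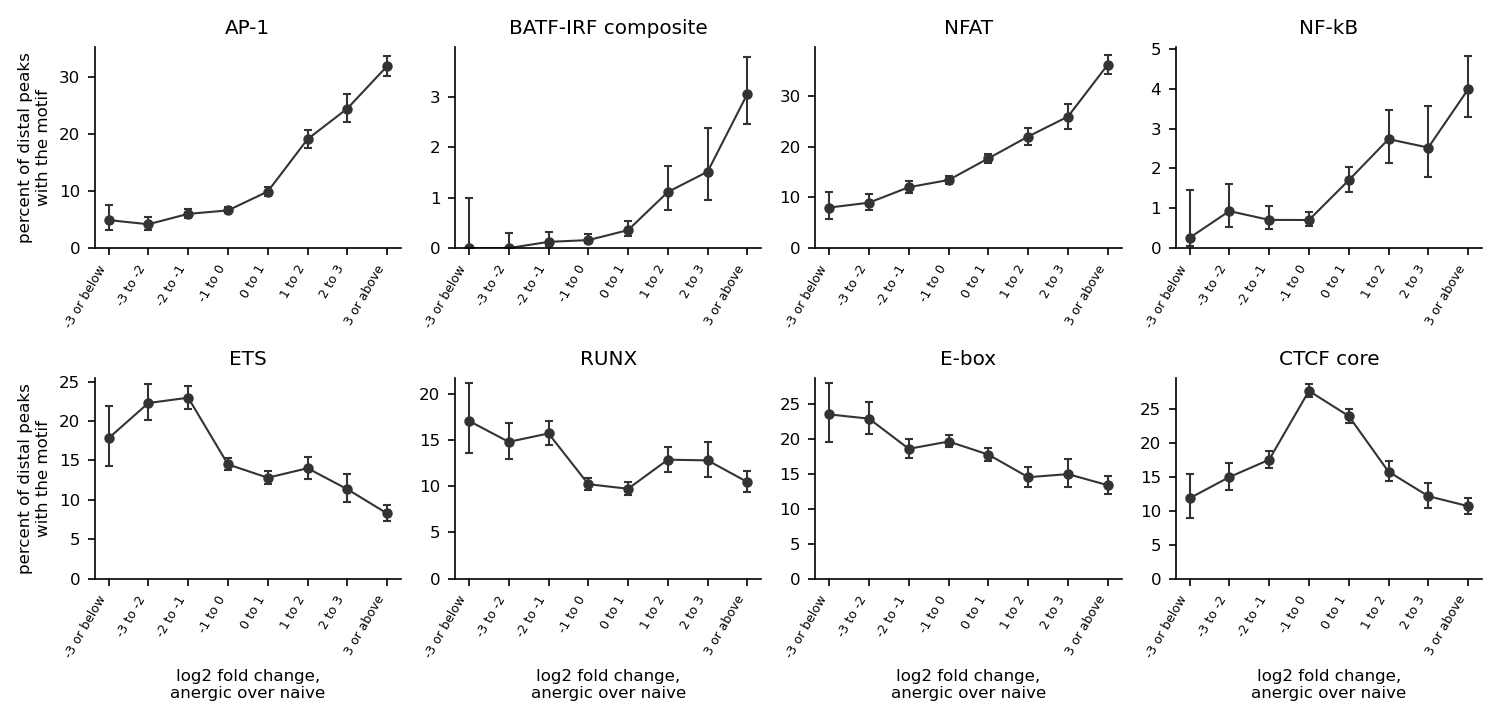
Percent of distal peaks that hold each of 8 motifs in the middle 200 bases, by class of log2 fold change (anergic minus naive), with 95% Wilson intervals that cover counting error only. AP-1 climbs to 31.9% in the class of largest rises, ETS peaks at 23.0% among moderate falls and the CTCF core at 27.7% near no change.

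The largest rises were intergenic and intronic peaks that naive cells hardly opened. At a peak in an intron of Ksr2, a scaffold protein of the RAS-MAP kinase pathway, signal was 6.5 and 0.774 in the naive libraries and 965, 722 and 887 in the anergic libraries (log2 fold change 7.87 ± 0.38, adjusted p = 2.44e-13). Near Eea1, a tether of early endosomes, signal at chr10:95914156-95915321 went from 18.7 and 10.1 to 2896, 2697 and 2549.7 (7.52 ± 0.22, adjusted p = 1.36e-16). The peak 216 kb downstream of the start of Ikzf2, which encodes the Ikaros factor HELIOS, had 0.812 and 0.774 in naive and 348, 440.2 and 431 in anergic libraries, at least 171-fold higher. The rule that named these peaks required no overlap between naive and anergic libraries, so their separation here was set by the choice.

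Of the other peaks among the 12 largest distal rises, 4 lay in introns of the gene they are named for. These were a peak of Kif13a (a kinesin, at least 184-fold), one of Lrrfip2 (at least 267-fold), one of Tmprss11e (at least 157-fold) and one of Hhat, a palmitoyltransferase of hedgehog proteins (at least 138-fold). Peaks near Akap7, an anchor of protein kinase A, and Pex3, a peroxisome assembly factor, were at least 232-fold and 143-fold higher. Further peaks lay near Nampt, the rate-limiting enzyme of NAD salvage (7.59 ± 0.50), and in an intron of Runx2 nearest to the start of Supt3 (7.69 ± 0.26). A nearest start site does not show which gene a distal peak serves.

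Promoters that opened included that of Gcnt1, the enzyme that builds core 2 O-glycans and with them selectin ligands, with 0.812 and 0.774 in naive and 186, 156 and 187 in anergic libraries, at least 74.0-fold higher. The promoters of the RNA-binding protein gene Elavl2, the small GTPase gene Rab39b and the SNAIL family factor gene Snai2 were at least 67.7-fold, 46.9-fold and 46.9-fold higher. The promoter peaks of C2cd4b (6.06 ± 0.58) and of Ryk, a WNT receptor (5.78 ± 0.39), completed the 6 largest promoter rises.

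The largest falls left little signal behind. An intron peak of Hspbap1 had 526 and 540.4 in naive and 28.2, 24.8 and 2.69 in anergic libraries (-5.25 ± 0.70, adjusted p = 1.5e-06). A peak 76.1 kb upstream of Slc25a33, a mitochondrial pyrimidine nucleotide carrier, went from 925 and 792 to 29.8, 25.8 and 20.8 (-5.03 ± 0.30, adjusted p = 7.24e-12). In an intron of Adamts14, a procollagen protease, signal at chr10:61232902-61233598 was 2633 and 2204 in naive and 104, 180.3 and 61.1 in anergic libraries (-4.51 ± 0.31, adjusted p = 4.87e-11). The promoter peak of Adamts14 also fell (-3.49 ± 0.40).

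The 3' UTR peak of Satb1, which encodes a chromatin organiser of T cells, went from 116 and 129 to 21.6, 1.58 and 2.02 (-4.46 ± 0.74, adjusted p = 2.76e-05). The other 8 among the 12 largest falls lay near Slc4a4, Cep164, Olfr314, Wwox, Tmem123, Ube2e1, Ppa2 and Bcl2l11, with log2 fold changes from -4.78 ± 0.61 at Slc4a4 to -4.22 ± 0.47 at Bcl2l11. Among promoters the largest fall was at Iftap (-4.05 ± 0.60), followed by Prf1, which encodes the pore-forming protein perforin, with 489 and 447 in naive and 63.0, 34.8 and 29.6 in anergic libraries (-3.51 ± 0.29, adjusted p = 9.09e-10). The promoter peaks of Auts2 (-3.44 ± 0.51), Tspan9 (-3.17 ± 0.32) and Bfsp2 (-3.15 ± 0.43) came after that of Adamts14.

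**Figure D3:**
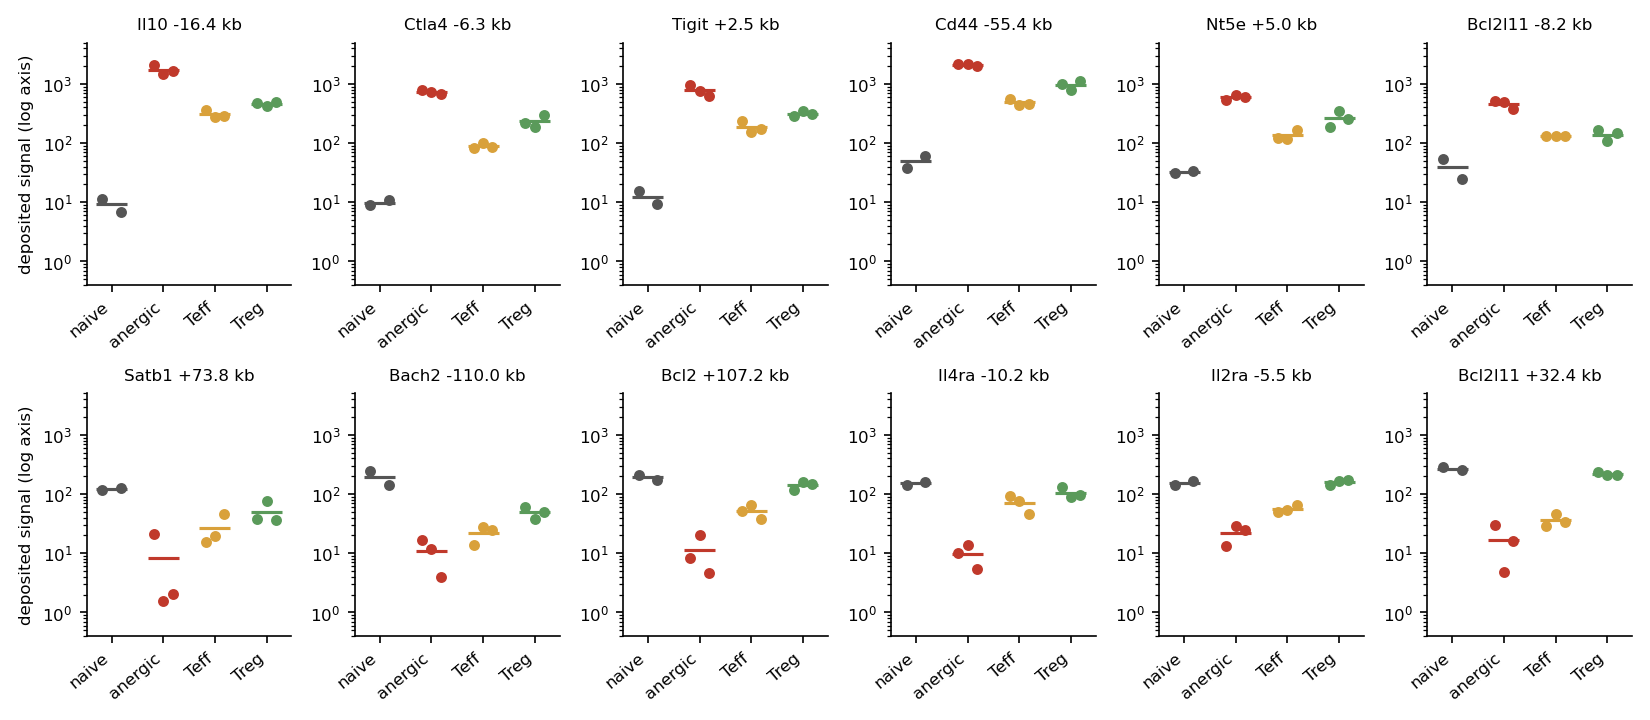
Deposited signal (log axis) of each library in naive, anergic, Teff and Treg cells at 12 peaks chosen after their values were seen, 6 that rose and 6 that fell from naive to anergic, with bars at the group mean. The anergic points lie apart from the naive points in every panel, for example at 1482 or more against 11.4 or less at the Il10 peak.

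At many genes the called peaks all moved one way. Of 2067 genes with 5 or more tested peaks, 516 had rises and no falls, 521 had falls and no rises, 992 had both and 38 had neither. All peaks rose at 67 of these genes and all fell at 56. Of the genes with the largest excess of rises, 8 were named, Atxn1 (23 of 26 peaks higher), Tnfsf8 (21 of 21), Fyn (20 of 24), Rapgef1 (20 of 21), AU020206 (19 of 24), Arhgef3 (20 higher and 1 lower of 31), Ikzf2 (17 of 17) and Ctla4 (18 higher and 1 lower of 21). The last pair tied, at an excess of 17, with Icos (17 of 21), Maf (17 of 22) and Septin9 (20 higher and 3 lower of 34). Tnfsf8 encodes the ligand of CD30, Fyn a SRC family kinase of the T cell receptor, Rapgef1 and Arhgef3 exchange factors of small GTPases, and Ctla4 the inhibitory receptor that competes with CD28. The median log2 fold change over the peaks of Ikzf2 was 4.71, with a range from 1.19 to 7.82.

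The 8 genes with the largest excess of falls were Lef1 (1 higher and 44 lower of 49 peaks), Gm30214 (30 lower of 32), Foxp1 (10 higher and 35 lower of 59), Bach2 (12 higher and 35 lower of 51), Satb1 (21 of 21), Jak1 (16 of 23), 8430430B14Rik (15 of 15) and Otulinl (15 of 20). LEF1, FOXP1, BACH2 and SATB1 are transcriptional regulators of the naive and quiescent state, and JAK1 is the kinase shared by many cytokine receptors. Lef1 fell by a median of 1.81 and Satb1 by a median of 2.77 on the log2 scale. Bach2 was mixed, with peaks from -4.19 to 4.03.

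Runs of neighbouring peaks that moved the same way, with gaps of at most 50 kb, reached 21 peaks for rises and 29 for falls. The 21 lay at Tnfsf8, chr4:63842224-63948362, with a median log2 fold change of 3.48. Further runs of rises held 19 peaks at Tubd1 and Vmp1 (chr11:86580204-86655934, median 3.11), 17 at Eea1 (chr10:95842874-96016071, 3.97) and 17 at Nfatc1 (chr18:80631478-80715817, 1.66). The 29 falls lay at Satb1 and Gm20098, chr17:51732601-51906961, with a median of -2.62. They were followed by 23 at Bach2 (chr4:32290860-32395131, -2.85), 16 from Slc22a21 to P4ha2 (chr11:54002223-54163371, -2.54) and 15 at 8430430B14Rik (chr17:83962097-84036262, -1.52). Runs of 5 or more held 20.5% of all rises, in 278 runs, and 17.2% of all falls, in 233 runs. With gaps of at most 20 kb the shares were 14.5% of rises, in 210 runs, and 10.7% of falls, in 147 runs, and the longest run of falls held 20 peaks.

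**Figure D4:**
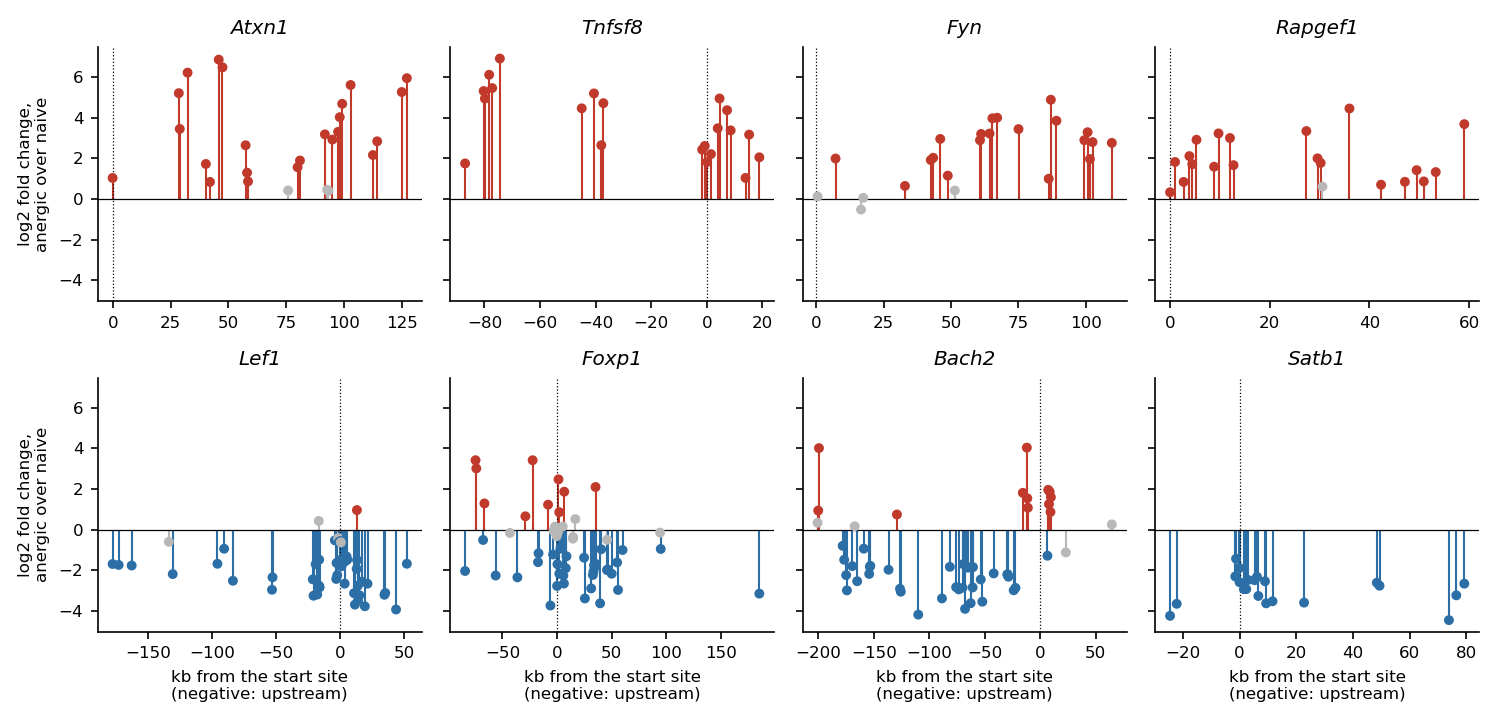
Log2 fold change (anergic minus naive) of every tested peak against its distance in kb from the start site, at the 4 genes with named symbols that had the largest excess of rises and the 4 with the largest excess of falls. All 21 peaks of Tnfsf8 lie above 0 and all 21 of Satb1 below, while Foxp1 and Bach2 hold peaks of both kinds.

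Genes of the sort markers Cd44, Nt5e, Izumo1r and Nrp1 opened in the cells gated for their proteins, and since the gate chose the cells these values check the labels and are not independent of them. Of the 68 peaks of the 8 genes in the sort marker list, 36 (52.9%) rose and 17 (25%) fell (median 0.66). The shares over all tested peaks were 25.3% and 25.1%. At a peak 55.4 kb upstream of Cd44, chr2:102956558-102957478, signal was 38.2 and 60.4 in naive and 2170.3, 2132 and 1978 in anergic libraries (5.42 ± 0.18, adjusted p = 9.67e-16), with 485 ± 59.7 (mean ± SD, n = 3) in Teff and 959 ± 152 in Treg. In an intron of Nt5e, chr9:88332304-88332968, signal went from 31.7 and 34.1 to 534, 638 and 604 (4.13 ± 0.25, adjusted p = 6.32e-12), and at its promoter from 447 and 429 to 1273, 1537 and 1418 (1.68 ± 0.14). Izumo1r had 65.0 and 71.2 in naive and 502, 522 and 442 in anergic libraries at a peak 1.13 kb upstream (2.82 ± 0.20, adjusted p = 1.46e-10). A 3' UTR peak of Nrp1 was at least 132-fold higher.

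The intron peak of Foxp3, chrX:7583720-7584393, had 15.4 and 7.74 in naive and 184, 114 and 96.0 in anergic libraries (3.41 ± 0.45, adjusted p = 1.53e-06), while Treg held 1331 ± 244 and Teff 31.1 ± 27.9. The anergic libraries were thus above naive and below Treg at the 1 tested peak of this gene, and the part of cells outside the gate in that value was not tested. In bulk libraries, fewer cells with an open site and less opening per cell cannot be told apart. At Il2ra, the CD25 gene, 7 of 13 peaks fell and 2 rose, and the peak 5.50 kb upstream went from 141 and 166 to 13.3, 29.0 and 24.9 (-2.79 ± 0.34, adjusted p = 4.89e-07), with 159 ± 15.1 in Treg. The Cd4 promoter, the gene of the lineage marker shared by all groups, did not pass (-0.16 ± 0.23, adjusted p = 0.597). An intron peak of Cd4 rose (1.47 ± 0.40, adjusted p = 0.00401), a call that was lost without naive replicate 1 (adjusted p = 0.0636).

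Inhibitory receptors and regulators of exhaustion opened broadly. Of their 126 peaks, 94 (74.6%) rose and 10 (7.94%) fell, beside 25.3% and 25.1% over all tested peaks. The median log2 fold change was 1.67, beside -0.04 over all peaks. At the peak 6.33 kb upstream of Ctla4, signal was 8.94 and 10.8 in naive and 779, 730.1 and 687 in anergic libraries (6.08 ± 0.24, adjusted p = 1.09e-14). Within Tigit, which encodes a receptor for poliovirus receptor family ligands, an intron peak went from 15.4 and 9.29 to 942, 762 and 631 (5.89 ± 0.24, adjusted p = 2.09e-14). All 8 peaks of Cd200 rose, as did 13 of 14 of Tigit and 6 of 8 of Pdcd1, the PD-1 gene.

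The HMG-box factor genes Tox (16 higher and 2 lower of 22) and Tox2 (all 7 higher), which act in chronically stimulated T cells, opened as well. The Tox intron peak whose composite is printed above had 2.44 and 3.87 in naive and 318, 207 and 208 in anergic libraries (5.88 ± 0.37, adjusted p = 1.55e-11). The list also held Lag3 (4 higher and 1 lower of 6).

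The enzymes named in classical anergy models, E3 ubiquitin ligases and diacylglycerol kinases with their regulators, were called at close to the shares over all peaks. Of 133 peaks, 36 rose and 40 fell, or 27.1% and 30.1% beside 25.3% and 25.1% over all tested peaks, and the larger of these counts changed with scaling by total reads and with leaving out single libraries. Within the list, Ndfip1, an activator of NEDD4 family ligases (6 of 7 higher), and Egr2, a factor of the anergy programme (4 of 8 higher), had rises and no falls. Peaks 82.4 kb upstream of Egr3, in an intron of Pebp4, and 51.9 kb upstream of Egr2 rose by 6.56 ± 0.40 and 6.01 ± 0.40. An intron peak of Cblb, the CBL-B ligase gene, had 2.44 and 2.32 in naive and 146, 147 and 122 in anergic libraries, at least 58.2-fold higher. Ikzf1, the IKAROS gene that this list holds as a repressor of Il2, fell at 13 of 21 peaks and rose at none.

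Genes of the T cell receptor complex and of CD4 T cell identity were also near those shares, with 56 rises (29.9%) and 55 falls (29.4%) among 187 peaks, and the larger count changed when anergic or naive replicate 2 was left out. Phosphatases and negative adaptors of receptor signalling rose at 84 (38.4%) and fell at 45 (20.5%) of 219 peaks (median 0.24), beside 25.3% and 25.1% over all peaks. Rises without a fall were counted at Sla, the adaptor SLAP that lowers receptor levels (15 of 24), and at the phosphatase genes Ptpn22 (8 of 11) and Ptpn11 (7 of 9). MAP kinase phosphatase genes split. Dusp4 (7 higher and 1 lower of 11), Dusp6 (7 higher and 2 lower of 13), Dusp2 (4 higher and 1 lower of 12) and Dusp1 (2 higher and 0 lower of 3) had more rises, while Dusp5 (0 higher and 8 lower of 10) and Dusp10 (3 higher and 11 lower of 17) had more falls.

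Calcium and NFAT genes had 38 rises (38.4%) and 15 falls (15.2%) among 99 peaks (median 0.13), beside 25.3% and 25.1% over all peaks. Nfatc1, the inducible NFAT gene, rose at 14 of 17 peaks, and an intron peak of Rcan1, an NFAT-induced inhibitor of calcineurin, went from 10.6 and 17.0 to 564, 590.4 and 498 (5.25 ± 0.30, adjusted p = 2.49e-12). The NR4A and EGR factor genes, which are early targets of receptor signalling, rose at 21 (36.8%) and fell at 9 (15.8%) of 57 peaks. Nr4a1 and Nr4a3 had falls and no rise, at 4 of 8 and 2 of 7 peaks, and Nr4a2 had 4 rises and no fall among 5.

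Peaks of the AP-1 and NF-kB factor lists rose more often than they fell, though not at every gene. The AP-1, BATF and ATF list counted 56 rises and 10 falls among 100 peaks (median 0.60), beside 25.3% and 25.1% over all tested peaks. Maf rose at 17 of 22, Fosb at 6 of 7 and Atf3 at 5 of 5. Maf, a large MAF factor with its own binding site, thus gave 17 of the 56 rises. Jun and Fosl2 had 2 and 2 falls and no rise among 4 and 5 peaks, and Mafk 2 falls among 3. Batf itself rose at 6 of 10 peaks and fell at 1. Its intron peak 17.0 kb from the start, chr12:85703525-85703940, had 57.7 and 49.6 in naive and 292, 476 and 443 in anergic libraries (2.86 ± 0.24, adjusted p = 1.76e-09), with 298 ± 38.8 in Teff and 313 ± 78.9 in Treg. Its second intron peak, 20.4 kb from the start, rose by 3.50 ± 0.43, whereas the promoter peak, at 1202 and 944 in naive and 1253, 1363 and 1282 in anergic libraries, did not pass (0.29 ± 0.16, adjusted p = 0.136).

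NF-kB subunits and inhibitors rose at 58 and fell at 9 of 105 peaks (median 0.59). Nfkb1, the p50 subunit gene (16 of 20), Tnfaip3, the A20 inhibitor gene (13 of 17), and Nfkbiz (12 of 18) had no fall. Ikbkb, which encodes an activating kinase of the pathway, fell at all 5 peaks, and neither Rela nor Relb had a called peak. The Nfkbiz peak printed above went from 4.06 and 5.42 to 359.8, 364 and 351 (5.98 ± 0.38, adjusted p = 2.04e-11). The IRF genes, at 12 rises and 10 falls among 49 peaks, were near the shares over all peaks (24.5% and 20.4% beside 25.3% and 25.1%), and the Ikaros family had 17 and 15 among 47. The larger count changed without anergic or naive replicate 2 for the IRF genes and with peaks limited to 50 kb for the Ikaros family. Within the latter, Ikzf2 rose at every peak and Ikzf1 fell at 13.

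The list of naive and stem-like transcription factors fell more often than it rose, though not at every gene. It fell at 237 (52.7%) and rose at 80 (17.8%) of 450 peaks (median -0.60), beside 25.1% and 25.3% over all tested peaks. Lef1 gave 44 of these falls, Foxp1 35, Bach2 35 and Satb1 21, the genes named above for their excess of falls. Of the 25 genes, 6 had falls and no rise, 4 had rises and no fall and 15 had both. A peak of Lef1 43.7 kb from a start site, picked after its value was seen, went from 1277 and 1183 to 94.5, 74.9 and 70.5 (-3.94 ± 0.19, adjusted p = 2.89e-13). At a peak 110 kb upstream of Bach2, chr4:32307257-32307534, signal was 245 and 144 in naive and 16.6, 11.6 and 4.03 in anergic libraries (-4.19 ± 0.54, adjusted p = 1.02e-06). Tcf7 (3 higher and 14 lower of 27) followed the list. An intron peak of Ets1, a factor gene with changes both ways, rose from 109.7 and 84.4 to 2253, 2208 and 1849 (4.43 ± 0.16, adjusted p = 1.7e-15).

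The lists named for lymph node homing and for naive cell survival receptors also fell more often than they rose. Lymph node homing genes fell at 68 (54.4%) and rose at 20 (16%) of 125 peaks (median -0.64), beside 25.1% and 25.3% over all tested peaks. A peak 27.8 kb upstream of Klf2 went from 192 and 149 to 21.6, 16.3 and 28.9 (-2.90 ± 0.36, adjusted p = 6.65e-07). The list includes Klf2 (1 higher and 12 lower of 16), the factor that drives S1pr1, S1pr1 (3 higher and 13 lower of 23), the egress receptor, Ccr7 (1 higher and 10 lower of 18) and Selplg (0 higher and 9 lower of 12). Cxcr4 (10 higher and 9 lower of 23) was split. The survival receptor list fell at 66 (56.9%) and rose at 25 (21.6%) of 116 peaks (median -0.70). Il7r, the IL-7 receptor gene, fell at 11 of 12. Not all genes of the list encode survival receptors. It also holds Tgfbr2 (2 higher and 11 lower of 16), Dapl1 (1 higher and 9 lower of 11), Actn1 (0 higher and 7 lower of 7) and Ifngr1 (1 higher and 6 lower of 7). The Il4ra peak printed above went from 145 and 160.3 to 9.95, 13.7 and 5.37 (-3.93 ± 0.41, adjusted p = 4.63e-08). Il2rb and Il6ra went against the list, with 5 and 5 rises and no fall.

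Lineage genes of helper subsets opened in different degree. The follicular helper list counted 102 rises and 7 falls among 143 peaks (median 1.82), with Icos (17 higher and 0 lower of 21), Cxcr5 (8 higher and 1 lower of 9) and Il21 (6 higher and 0 lower of 7), while Bcl6, the lineage repressor, had 3 falls and no rise among 9. The Treg list counted 89 rises and 16 falls among 135 peaks (median 1.69), and this list shares Ctla4, Ikzf2 and other genes with lists above. Th1 and cytotoxic genes rose at 63 (46.0%) and fell at 40 (29.2%) of 137, beside 25.3% and 25.1% over all peaks. They include Tbx21 (9 higher and 0 lower of 12), the T-BET gene, Ifng (9 higher and 1 lower of 11) and Prf1 (0 higher and 6 lower of 6). Th2 genes rose at 30 (54.5%) and fell at 7 (12.7%) of 55, and Th17 genes rose at 25 (45.5%) and fell at 18 (32.7%) of 55. A Tbx21 intron peak went from 13.8 and 10.1 to 826, 521 and 716 (5.72 ± 0.25, adjusted p = 4.45e-14). One in Rora, a factor gene of Th17 and Th2-like innate programmes, went from 12.2 and 3.1 to 524, 559 and 535 (6.20 ± 0.30, adjusted p = 2.08e-13). A peak 9.80 kb from the start of Il17a had 0.812 and 14.7 in naive and 162, 227 and 185 in anergic libraries (5.16 ± 0.55, adjusted p = 6.68e-08).

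Cytokine genes had the highest median among the 39 lists, 2.42, with 50 rises (66.7%) and 11 falls (14.7%) among 75 peaks. The shares over all tested peaks were 25.3% and 25.1%. At a peak 16.4 kb upstream of Il10, chr1:131002994-131003812, which encodes an anti-inflammatory cytokine, signal was 11.4 and 6.97 in naive and 2071, 1482 and 1656 in anergic libraries (7.44 ± 0.21, adjusted p = 9.3e-17). It was 308 ± 47.8 in Teff and 464 ± 42.0 in Treg. Il10 rose at 12 of 13 peaks and Il13 at 7 of 7. The Il4 promoter had 3.25 and 3.87 in naive and 77.9, 90.7 and 69.9 in anergic libraries (4.14 ± 0.42, adjusted p = 3.09e-08).

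TNF family ligands rose at 44 (57.9%) and fell at 10 (13.2%) of 76 peaks, and TNF receptors rose at 31 (48.4%) and fell at 12 (18.8%) of 64. Over all tested peaks these shares were 25.3% and 25.1%. The peak 74.5 kb upstream of Tnfsf8 went from 18.7 and 12.4 to 1847, 1950.4 and 2072 (6.91 ± 0.17, adjusted p = 4.81e-17), and the Cd70 peak printed above from 3.25 and 3.87 to 411, 440.2 and 325 (6.42 ± 0.32, adjusted p = 2.99e-13). CD70 is the ligand of the costimulatory receptor CD27. A peak 34.0 kb upstream of Cd83 was at least 73.8-fold higher.

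Integrin genes rose at 36 (46.8%) and fell at 15 (19.5%) of 77 peaks (median 0.45), beside 25.3% and 25.1% over all peaks. Intergenic and intron peaks of Itgb1 and Itgav, which pair as a fibronectin and TGF-beta binding integrin, rose by 7.24 ± 0.39 and 7.19 ± 0.34, and all 13 tested peaks of Itgb1 rose. Tissue and inflammatory homing receptors had 27 rises (39.1%) and 17 falls (24.6%) among 69 peaks with a median of 0.00, whose sign changed in 10 of 17 alternatives. The Gpr15 peak printed above, near the gene of a receptor for homing to the large intestine, was at least 34.7-fold higher.

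Bcl2l11, which encodes the death-promoting protein BIM, changed in opposite directions along the locus. Upstream, a peak 8.21 kb from the start in an intron of the neighbouring gene Acoxl, chr2:128117601-128118049, had 52.8 and 24.8 in naive and 517, 496 and 383 in anergic libraries (3.63 ± 0.28, adjusted p = 4.08e-10). The 5' UTR peak, chr2:128125371-128126707, fell from 3039 and 3335 to 1346, 1398 and 1653 (-1.12 ± 0.12, adjusted p = 3.88e-08). Downstream, the 3' UTR peak, chr2:128159765-128160169, went from 286 and 251 to 29.8, 4.74 and 16.1 (-4.22 ± 0.47, adjusted p = 1.13e-07), with 36.0 ± 9.22 in Teff and 218 ± 14.1 in Treg. In all, 3 of its 14 peaks rose and 7 fell.

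The BCL2 family as a list was near the shares over all peaks, with 24 rises (30.4%) and 22 falls (27.8%) among 79 peaks, an order that turned without anergic replicate 1. Bcl2, which protects from BIM, had 3 rises and 8 falls among 16 peaks, and an intron peak went from 210.4 and 175 to 8.29, 20.6 and 4.7 (-4.21 ± 0.44, adjusted p = 5.15e-08). Pmaip1, the gene of the death-promoting protein NOXA, rose at all 8 peaks, one of them from 11.4 and 5.42 to 134, 144 and 142 (3.98 ± 0.46, adjusted p = 1.9e-07). Death receptors and caspases rose at 28 (38.4%) and fell at 13 (17.8%) of 73 peaks, beside 25.3% and 25.1% over all peaks. The receptors and enzymes of adenosine, nucleotides and folate, to which the sort markers CD73 and FR4 belong, rose at 27 (40.9%) and fell at 15 (22.7%) of 66. Nt5e (6 higher and 1 lower of 7) and Izumo1r (5 higher and 1 lower of 7) are among these, and the gate chose cells by their proteins. An intron peak of the ATP receptor gene P2rx4 fell from 2601 and 1981 to 436, 429 and 247 (-2.66 ± 0.22, adjusted p = 9.21e-10).

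TGF-beta receptor and SMAD genes closed, with 61 falls and 20 rises among 121 peaks (median -0.53), and 7 of their 14 promoter peaks fell while none rose. All 13 peaks of Smad7, the inhibitory SMAD, fell, and 11 of 16 of the receptor gene Tgfbr2. In an intron of Smad4, the SMAD shared by the pathway's signals, signal went from 311 and 169.6 to 31.5, 24.2 and 14.1 (-3.32 ± 0.45, adjusted p = 1.81e-06). A peak 44.3 kb upstream of Smad3 went the other way, from 16.2 and 2.32 to 209, 172 and 152 (4.55 ± 0.46, adjusted p = 2.76e-08). STAT and SOCS genes with their kinases split by gene, with 47 rises (35.9%) and 43 falls (32.8%) among 131 peaks, beside 25.3% and 25.1% over all peaks. Jak1 and Stat5b, which carry IL-2 and IL-7 signals, fell at 16 of 23 and 13 of 19. Jak2 rose at 13 of 14, and an intron peak of it went from 53.6 and 51.9 to 2364, 2675 and 2403 (5.53 ± 0.15, adjusted p = 7.52e-17). Stat4, which carries IL-12 signals, and the inhibitor gene Cish rose at 8 and 7 peaks and fell at none.

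Lists of metabolism and division were called at shares near the 25.3% and 25.1% over all peaks. Glycolysis, mTOR and NAD genes had 33 rises (28.9%) and 26 falls (22.8%) among 114 peaks, with Hif1a, the hypoxia factor gene, at 12 higher and none lower of 15. Cell cycle genes had 24 rises (25.8%) and 29 falls (31.2%) among 93, an order that turned with cyclic loess, with scaling by total reads and without naive replicate 2. DNA methylation and histone enzymes rose at 21 and fell at 34 of 106, or 19.8% and 32.1%. Of the DNA demethylase genes, Tet2 rose at all 5 peaks, Tet1 fell at all 4, and Tet3 fell at 8 and rose at 2 of 14. A peak 107 kb from the start of Tet2 went from 7.31 and 8.52 to 511, 479 and 326 (5.60 ± 0.27, adjusted p = 2.65e-13), and one 20.7 kb upstream of Hif1a from 4.06 and 3.87 to 229, 273 and 231 (5.62 ± 0.40, adjusted p = 9.42e-11). Outside metabolism and division, interferon-stimulated genes rose at 8 (21.6%) and fell at 13 (35.1%) of 37. Housekeeping controls rose at 8 and fell at 13 of 68 peaks, and cytosolic ribosomal protein genes at 2 and 7 of 37, below the 25.3% and 25.1% over all peaks.

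**Figure D5:**
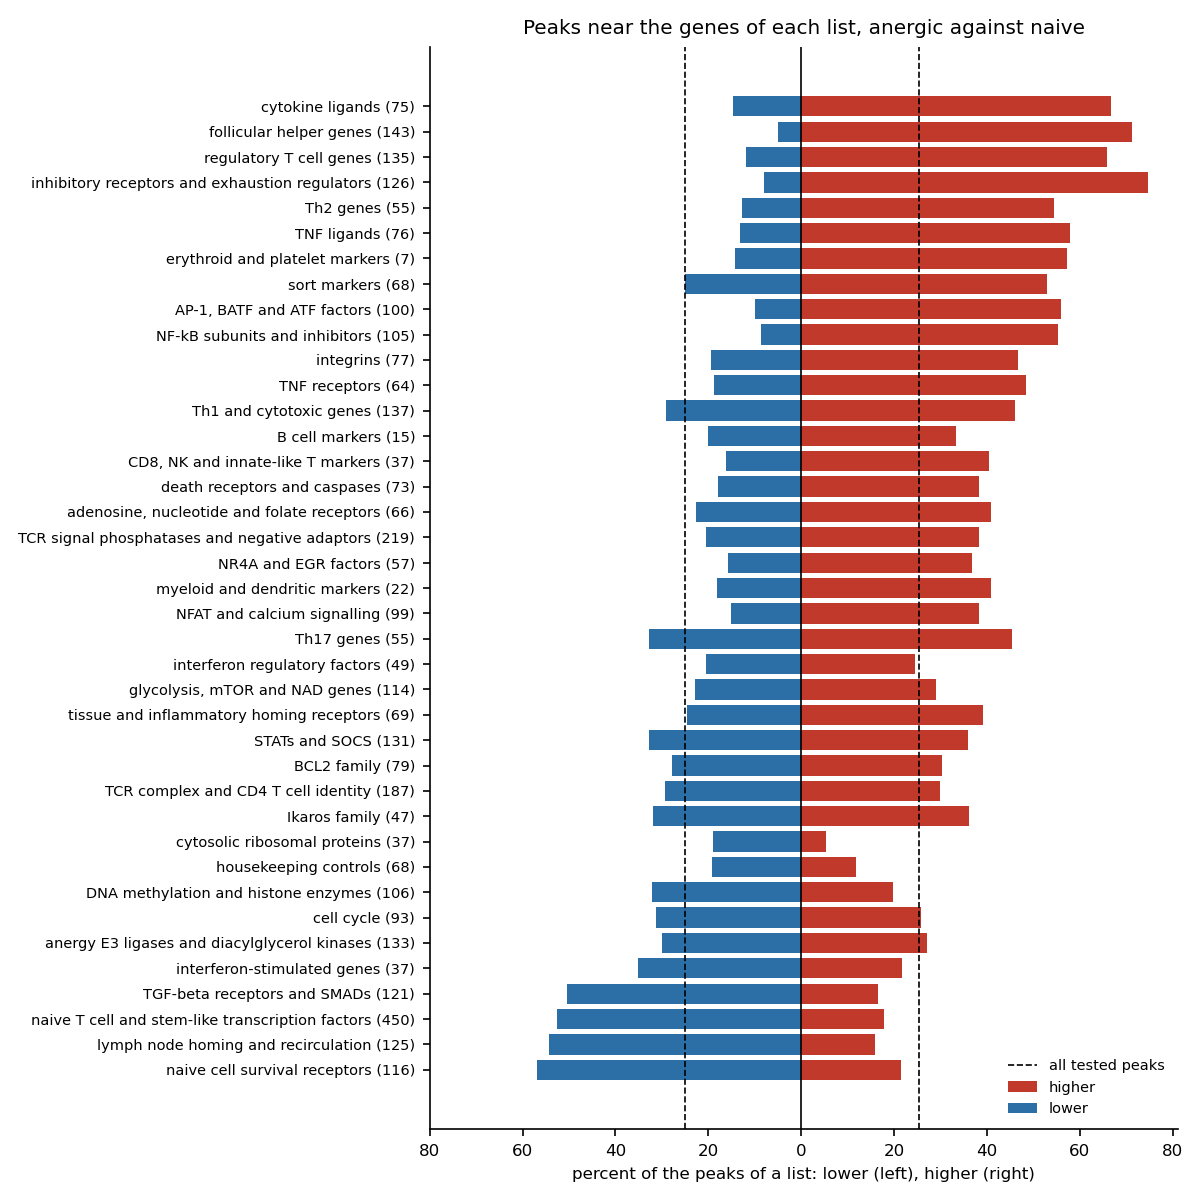
Percent of each list's tested peaks called lower (left) and higher (right) in anergic cells, for 39 gene lists ordered by median log2 fold change, with the number of peaks in parentheses and dashed lines at the share over all tested peaks. Cytokine ligands, follicular helper genes, Treg genes and inhibitory receptors stand at one end, and naive survival, lymph node homing and naive transcription factor genes at the other.

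Markers of other cell types that a sort could carry were few among the peaks. The shares of rises and falls over all tested peaks were 25.3% and 25.1%. B cell markers had peaks at 5 of 14 genes and none at the defining genes Ms4a1, Cd79a and Pax5. They had 5 rises (33.3%) and 3 falls (20%) among 15 peaks. Their summed signal was 2782 to 2914 in naive and 3864 to 4323 in anergic libraries. Myeloid and dendritic markers had peaks at 8 of 15 genes and none at Lyz2 or Csf1r. They had 9 rises (40.9%) and 4 falls (18.2%) among 22 peaks, with sums of 7494 to 8192 and 10876 to 11246. The Cebpa promoter stood out among these, with 117 and 134 in naive and 2353, 2187 and 2279 in anergic libraries (4.17 ± 0.15, adjusted p = 3.41e-15). CD8, NK and innate-like markers had peaks at 8 of 13 genes and none at Cd8a or Ncr1. They had 15 rises (40.5%) and 6 falls (16.2%) among 37 peaks, with overlapping sums of 26480 to 27453 and 23547 to 28998. Of the 8 genes, 3 had rises and no fall, 4 had falls and no rise and 1 had both. The Cd8b1 promoter fell from 1117 and 1149.7 to 285, 189.8 and 115 (-2.62 ± 0.25, adjusted p = 9.84e-09). At Zbtb16, a gene of innate-like T cells, a run of 8 neighbouring peaks rose (median log2 fold change 3.01). Erythroid and platelet markers had 4 rises and 1 fall among 7 peaks. Their part in the results above was not tested.

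The named peaks were set beside Teff and Treg to see where the anergic level stood among antigen-experienced cells. These comparisons share the anergic libraries with the one above and the peaks were picked for their difference from naive, so their values are given side by side. Over all peaks, 32.8% passed between anergic and Teff and 34.1% between anergic and Treg. At the Il10 peak the log2 difference was 2.49 ± 0.19, adjusted p = 3.23e-09 against Teff and 1.89 ± 0.19, adjusted p = 2.09e-07 against Treg, and anergic cells were the highest of the 4 groups. At the Cd44 peak it was 2.11 ± 0.16, adjusted p = 4.11e-09 against Teff and 1.14 ± 0.16, adjusted p = 1.86e-05 against Treg. The Ikzf2 peak had 33.9 ± 8.53 in Teff and 47.3 ± 22.7 in Treg, below each of the anergic libraries.

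At other peaks the difference from Teff did not pass. The Ifng peak 5.49 kb upstream of the start had 10.6 and 4.65 in naive, 288, 256 and 226 in anergic and 253 ± 90.7 in Teff libraries, and anergic and Teff differed by 0.08 ± 0.71, adjusted p = 0.95. The Nfatc1 intron peak differed by -0.16 ± 0.19, adjusted p = 0.559 between anergic and Teff, and by 2.81 ± 0.19, adjusted p = 1.62e-09 between anergic and Treg. At some peaks that rose from naive to anergic, Teff cells stood higher still. An intron peak of Zbtb16, the PLZF gene of innate-like T cells, was at least 20.6-fold higher in anergic than in naive libraries and -2.62 ± 0.41, adjusted p = 2.91e-05 against Teff, and a peak 3.30 kb upstream of the chemokine receptor gene Cxcr3 was -1.04 ± 0.25, adjusted p = 0.0022. The Foxp3 intron peak was -3.37 ± 0.41, adjusted p = 2.06e-06 against Treg.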

How the data were processed

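Trimmomatic 0.38.1 trimmed the reads, which, per the series' design text, were aligned to mm10 (Bowtie2 2.3.3.1), sorted (SAMtools 1.13) and passed to Genrich 0.5 for peaks in each library, which DiffBind 2.10.0 merged to a consensus. The authors deposited signal for 38509 peaks in 11 libraries, and the scaling method is not given in the sources used here. Dividing each library's deposited signal by its smallest value gave whole reads for 100.0% of values within 0.01. The treatment of empty peaks is not given in the sources used here, so the lowest value may stand for 0 reads.

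limma 3.58.1 (limma-trend, R 4.3.3) was fitted to log2 of signal plus 1 with all 11 libraries and group as the term. The ± beside a log2 fold change is its standard error, and p-values were adjusted by Benjamini-Hochberg over 38493 peaks after edgeR's filter on low counts removed 16. edgeR 4.0.16 on the recovered reads called 19546 peaks. Each peak was given to the nearest of 44528 RefSeq start sites (GRCm38.p6), measured from its centre. The fit was also run on simulated data with far fewer changed peaks than were called here. That run cannot show how the fit behaves under change of this extent.

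The members, the 39 gene lists (506 of 571 genes with a tested peak) and the tests were chosen with earlier results of these data known. Peaks were named by rule. The rule takes the sort markers, Batf and Bcl2l11, each by smallest adjusted p and nearest the start. It adds the 12 largest changes each way and 6 promoter changes each way, without overlap between groups, with at least 1 RPM in peaks and no predicted gene. It further takes 8 genes each way by excess of called peaks, 4 runs each way and up to 4 genes a list. Other peaks are marked as picked after their values were seen. These are individual peaks of Lef1 and those printed as sequence or plotted by library. Alternatives changed the pseudocount, filter, scaling, test, libraries, replicate block, promoter distance, gene distance, motif window and run gap. The RNA-seq of the series was not analysed here, and some items that the rule names are not reported here.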

Additional observations from a re-analysis of the deposited data

How the results depend on the processing

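The count of 19420 called peaks stayed within 1.5 times under every alternative run, from 15285 without naive replicate 1 and 16385 without naive replicate 2 to 19914 with cyclic loess, and leaving out single anergic libraries gave 17718 to 18804. Numbered replicates showed no clear pairing of the libraries (correlations of same-numbered deviations from -0.114 to 0.155, and not every library was closest to its own number). Deviations from a group mean of 2 or 3 libraries depend on each other, so this cannot exclude pairing, on which the labels are silent. A replicate block gave 19219 calls, 18677 of them shared. Higher peaks made up 49.8% to 54.3% of calls, and the median log2 fold change of all peaks ran from -0.057 to 0.003. With promoters limited to 500 bases, 30.7% of promoter and 58.3% of distal peaks were called. In a 100-base window, AP-1 words were in 14.3% of higher and 2.80% of lower distal peaks, and ETS words in 6.47% and 12.98%. With gaps of at most 20 kb there were 147 runs of 5 or more falls. Of 2992 refitted values of 187 named peaks, 2966 kept call and direction, 26 at 10 peaks lost the call and none reversed. With 2 naive libraries, leaving 1 out assumes that the other varies like the remaining groups. Peaks near 1 read in naive cells limit every fold measured from them.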

Other observations

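At several further genes all tested peaks given to the gene by nearest start moved the same way. All 12 tested peaks of Firre, a long non-coding RNA gene of chromosome X that takes part in X chromosome organisation, rose by similar amounts, from 0.65 to 1.13 on the log2 scale, whereas the 14 peaks of Fam43a ranged from 1.18 to 6.77 and the 9 of Rbpj, the DNA-binding partner of NOTCH, from 0.43 to 7.02. All 12 peaks of Ptger2, which encodes a prostaglandin E2 receptor, rose, with a median of 4.33. On the other side all 13 peaks of Vps37b, which encodes a subunit of an endosomal sorting complex, fell (median -1.77), as did all 9 of Gimap6, a GTPase gene of lymphocyte survival (median -1.06).

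Changes in both directions were found at 992 of the 2067 genes with 5 or more tested peaks, and some with many peaks are given as examples. Over all tested peaks, 25.3% rose and 25.1% fell. Ets1 had 14 rises and 9 falls among 49 peaks, Runx1 12 and 8 among 32, and Ptprc, the CD45 gene, 9 and 6 among 28. Il6st, which encodes the signal chain of the IL-6 receptor, had 9 of each among 25 peaks, from -1.67 to 3.96. The 54 peaks nearest to Dad1, a gene beside the T cell receptor alpha locus, had 6 rises and 19 falls, the farthest of them 605 kb away. By chromosome, the share of peaks called ran from 37.1% on X to 57.3% on 18. Among promoter peaks, AP-1 words were in 7.80% of those that rose, 2.35% of those that fell and 3.59% of all.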
